A study of Mus musculus with 6 samples.

Results

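Collagen genes were taken as all rows of the deposited count table whose symbol has the form Col, a type number, a and a chain number, which gave 44 of 27482 gene symbols. Collagens are matrix proteins whose chains wind around each other in a helix of glycine-rich repeats. Fibrillar collagens form the load-bearing fibrils of the interstitium, type IV collagen forms the sheet-like network of basement membranes, and type VI forms beaded filaments that link cells to fibrils. In the heart, fibroblasts make most of the interstitial collagen, and collagen deposition is part of scar formation after infarction. The 44 rows comprised 11 fibrillar chains, 8 chains of basement membranes (type IV with the multiplexins XV and XVIII, which carry anti-angiogenic fragments), 6 beaded-filament chains of type VI, 9 fibril-associated chains, 4 transmembrane chains and 6 others (short-chain, anchoring-fibril and less classified types).

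The libraries were labelled as heart of male mice given an AAV9 vector, an adeno-associated virus that reaches heart muscle, and subjected to cardiac ischemia/reperfusion (I/R) surgery. In 3 libraries, called AAV9-hFNDC4, the vector overexpressed FNDC4, in the other 3, called AAV9-CTRL, it was the control, and all were sampled 24 h after injury. Both groups thus carried a vector and the injury, and no uninjured group was analysed here. The sources used here do not give the strain, the age, the promoter of the vector or whether animals were pooled, and Fndc4 itself was not analysed here, so that the vector labels have no check from it. The labels do not say whether each library is a separate animal. All p-values therefore rest on the spread among these 6 libraries, and that spread may be technical.

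The 6 libraries held 32975817 to 36074046 counts each, and a count was found for 18717 to 18863 genes in AAV9-hFNDC4 and for 20431 to 20870 in AAV9-CTRL, a gap whose part in the results was not tested. The tissue label was checked against marker lists. Of 16 cardiomyocyte markers in the table, 3 reached 1 CPM (a count scaled to a library of 1000000) in at least 3 libraries, with summed levels of 45.7 to 47.0 CPM in the AAV9-hFNDC4 libraries and 58.7 to 59.6 CPM in the AAV9-CTRL libraries, and Nkx2-5, Pln and Myl7 were at 0 in all 6, which goes against heart muscle as the main source of RNA. Tnnt2 made up most of the cardiomyocyte sums, at 38.1 ± 0.669 CPM in AAV9-hFNDC4 against 51.7 ± 1.71 CPM in AAV9-CTRL. Tnnt2 and Ryr2 were lower in AAV9-hFNDC4. Tnnt2 lost its call with the correction for exon length that is described below (log2 fold change -0.05). Ryr2 had 1, 1 and 2 counts in AAV9-hFNDC4 and 21, 12 and 20 in AAV9-CTRL. It passed the minimum count for testing through the AAV9-CTRL libraries alone. Of 13 fibroblast markers, 8 reached 1 CPM. The 13 summed to 5257 to 5886 CPM in the AAV9-hFNDC4 libraries and 5928 to 7656 CPM in the AAV9-CTRL libraries. Yet Dcn, Lum, Tcf21 and Postn, which mark cardiac fibroblasts, stayed under 1 CPM in every library. Vim and S100a4, which many cell types express, made up most of that sum. Without them, a split made after the values were seen, the other 11 summed to 1307 to 1385 CPM in the AAV9-hFNDC4 libraries and 886 to 919 CPM in the AAV9-CTRL libraries, the opposite direction. Among the fibroblast markers Pdgfra, Pdgfrb, Ddr2 and Pi16 were higher in AAV9-hFNDC4 and S100a4 and Dpt lower, with 60.6% of the exon bases of S100a4 shared with Gm42674. Of 14 leukocyte and macrophage markers 4 reached 1 CPM, with sums of 19.0 to 22.3 CPM in the AAV9-hFNDC4 libraries and 38.0 to 44.6 CPM in the AAV9-CTRL libraries. Cd68 was lower, at 11.7 ± 1.40 CPM against 27.9 ± 2.94 CPM. Itgam had 0 counts in every AAV9-hFNDC4 library and 61, 47 and 60 in those of AAV9-CTRL. It passed the minimum count for testing through the AAV9-CTRL libraries alone, and 70.0% of its exon bases are shared with Gm49368. Of 9 mural and smooth muscle markers 2 reached 1 CPM. The 9 summed to 458 to 506 CPM in the AAV9-hFNDC4 libraries and 294 to 349 CPM in the AAV9-CTRL libraries. Cspg4 made up most of these sums and was higher, at 389.5 ± 25.6 CPM against 236.8 ± 32.8 CPM, while Des did not pass. Tagln and Notch3 were lower. Notch3 had 2, 4 and 15 counts against 40, 41 and 32, and Tagln had 10, 6 and 2 against 15, 17 and 25. Both thus passed the minimum count mainly through the AAV9-CTRL libraries. Tagln lost its call with the length correction (-1.49). Of 11 endothelial markers 3 reached 1 CPM and none was called. The 11 summed to 201 to 223 CPM in the AAV9-hFNDC4 libraries and 230.0 to 248 CPM in the AAV9-CTRL libraries. Eng made up most of these sums, at 212.2 ± 11.6 CPM against 236.6 ± 9.27 CPM. Of 8 epithelial and mesothelial markers 1 reached 1 CPM, with sums of 46.5 to 50.6 CPM in the AAV9-hFNDC4 libraries and 73.0 to 88.0 CPM in the AAV9-CTRL libraries, and Msln was lower. Of 10 cartilage and bone markers 4 did. These markers thus differed between the groups along with the collagens, and their part in the collagen results was not tested. In bulk RNA, fewer cells of a type and less RNA per cell cannot be told apart.

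Of the 44 collagen rows, 25 reached 1 CPM in at least 3 of 6 libraries, and 23 did so in all 6. They comprised 8 of 11 fibrillar chains, 5 of 8 basement membrane chains, 3 of 6 type VI chains, 5 of 9 fibril-associated chains, 1 of 4 transmembrane chains and 3 of 6 others. The limit fell in a gap between Col8a2, whose mean over the 6 libraries was 1.07 CPM, and Col27a1, at 0.297 CPM. Col2a1, the chain of cartilage fibrils, reached it in the AAV9-CTRL libraries alone, and Col8a2 reached it in 5 libraries.

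Levels of different genes were compared per kilobase of exon, within each group, as mean CPM per kilobase ± SD (n = 3). In both groups Col1a2 and Col6a1 led, at 279 ± 27.4 and 273 ± 34.8 in AAV9-hFNDC4 and 206 ± 22.4 and 185 ± 25.7 in AAV9-CTRL. Their ranges overlapped within each group. Within single libraries, Col1a2 was above Col6a1 in every library except AAV9-hFNDC4 replicate 3. Next in AAV9-hFNDC4 came Col6a2 at 150.2 ± 18.3, Col4a1 at 147 ± 6.28, Col6a3 at 121 ± 10.6, Col3a1 at 116 ± 0.698, Col1a1 at 104 ± 18.4 and Col4a2 at 101 ± 3.06. In AAV9-CTRL the order was Col4a1 at 132 ± 9.83, Col6a2 at 103 ± 17.5, Col1a1 at 81.8 ± 10.2, Col4a2 at 77.8 ± 5.82, Col6a3 at 63.5 ± 5.37 and Col3a1 at 62.0 ± 6.99. Col6a3 and Col3a1 thus stood above Col1a1 and Col4a2 in the means of AAV9-hFNDC4 and below them in those of AAV9-CTRL. Within these orders the libraries of Col6a2 and Col4a1 overlapped in AAV9-hFNDC4 and not in AAV9-CTRL. Those of the neighbours Col6a3 and Col3a1, and of Col1a1 and Col4a2, overlapped in both groups. Lengths here join the exons of all transcripts, which gives 6008 bases for Col6a2, beside 4653 for its longest transcript. The place of Col6a2 relative to Col4a1, and their overlap, therefore depend on the length used. Col5a1, Col16a1 and Col18a1 followed in both groups, then Col5a3 and Col5a2 and then Col8a1, a short-chain collagen of vessel walls, at 17.6 ± 0.999 and 15.8 ± 4.83. The remaining collagens were lower, with Col15a1 next in AAV9-hFNDC4 at 7.40 ± 2.81 and Col20a1 next in AAV9-CTRL at 3.78 ± 0.294.

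**Figure D1:**
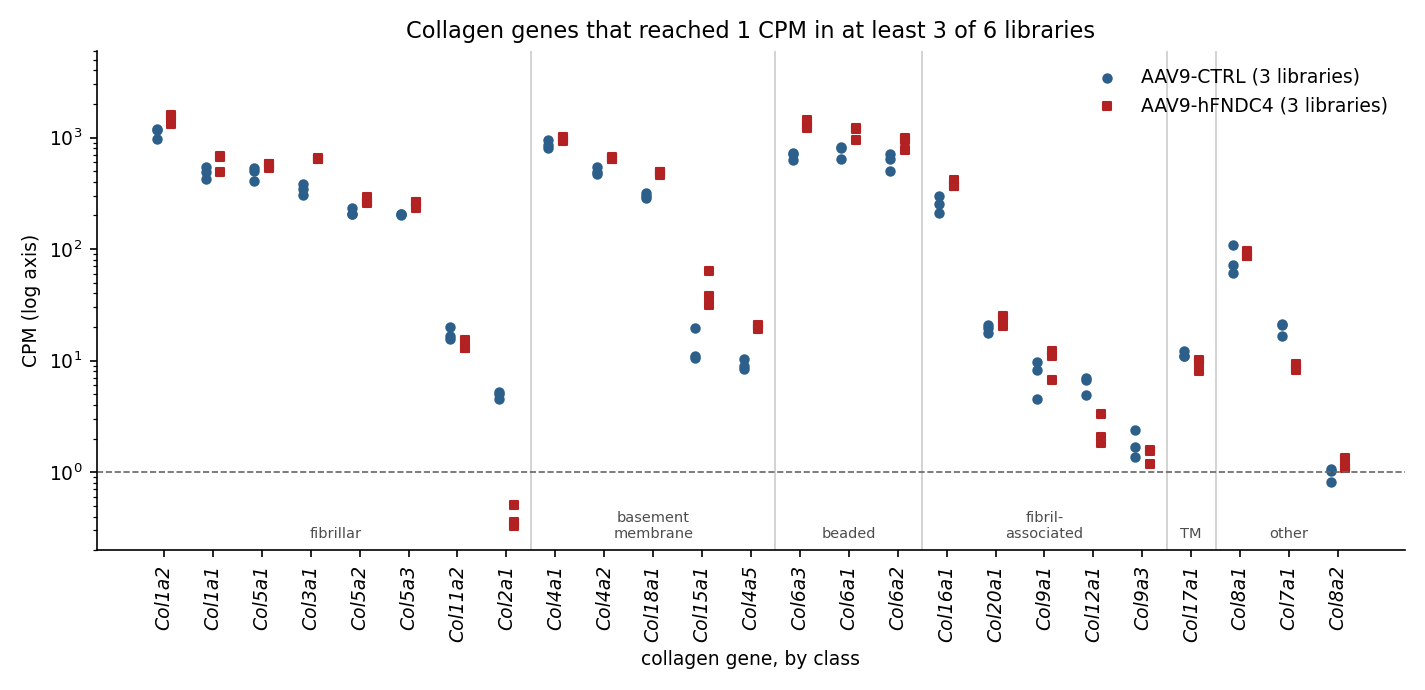
CPM on a log axis for the 25 collagen genes that reached 1 CPM (dashed line) in at least 3 of 6 libraries, grouped by class (TM, transmembrane), with 1 point per library. The squares of AAV9-hFNDC4 lie above the circles of AAV9-CTRL for the 3 type VI chains and for Col3a1, and below them for Col2a1, Col12a1 and Col7a1.

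The comparison asked how collagen expression differed between FNDC4 overexpression and the control vector after I/R. In AAV9-hFNDC4, 12 collagen genes were higher, 3 were lower and 13 did not pass among the 28 that could be tested (edgeR quasi-likelihood test, Benjamini-Hochberg adjusted p under 0.05 over all 14663 genes tested). The higher genes were Col1a2, Col3a1, Col5a2 and Col5a3 (fibrillar), Col4a2, Col4a5, Col15a1 and Col18a1 (basement membrane), Col6a1, Col6a2 and Col6a3 (type VI) and Col16a1 (fibril-associated). The lower genes were Col2a1, Col7a1 and Col12a1. Over all genes tested, 22.1% were higher and 25.0% lower, against 42.9% and 10.7% of the tested collagens. The median log2 fold change of the 28 was 0.34, beside 0.01 over all genes tested. Groups did not overlap in 20 of the 28 (71.4%), beside 56.6% of all genes tested. The remaining 16 rows did not pass the minimum count, and Col14a1 passed it through the AAV9-CTRL libraries alone and Col25a1 and Col27a1 through the AAV9-hFNDC4 libraries alone, so these shares do not describe all 44 rows.

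Summed over all 44 rows, collagen transcripts stood at 9958, 9291 and 10444 CPM in replicates 1 to 3 of AAV9-hFNDC4 and 6717, 7267 and 7065 CPM in those of AAV9-CTRL. The sums did not overlap, with 9898 ± 579 CPM against 7016 ± 278 CPM (mean ± SD, n = 3 each), a ratio of 1.41. As a share of all counts, collagens took 1.05 ± 0.0837% against 0.664 ± 0.0248%. That share is wider apart than the CPM because CPM include a scaling factor per library (TMM). The factor was 1.03 to 1.07 in the AAV9-hFNDC4 libraries and 0.929 to 0.959 in the AAV9-CTRL libraries. The size of the collagen difference thus depends on this scaling. By class, type VI chains had the highest ratio of summed CPM at 1.62, followed by fibril-associated at 1.46, fibrillar at 1.35 and basement membrane chains at 1.28. The sums of these 4 classes did not overlap between the groups. Transmembrane chains had a ratio of 0.839 and the others one of 0.986. Type VI made up 33.7 ± 1.26% of collagen CPM in AAV9-hFNDC4 and 29.4 ± 1.54% in AAV9-CTRL, while fibrillar chains made up 39.0 ± 0.783% and 40.7 ± 1.03%. These sums were not tested, and each is mostly the sum of its few most abundant members. Col16a1 made up most of the fibril-associated sum, at 383 of 420.2 CPM in AAV9-hFNDC4 and 253 of 288 CPM in AAV9-CTRL. The median log2 fold change of the 6 tested members of that class was -0.04.

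**Figure D2:**
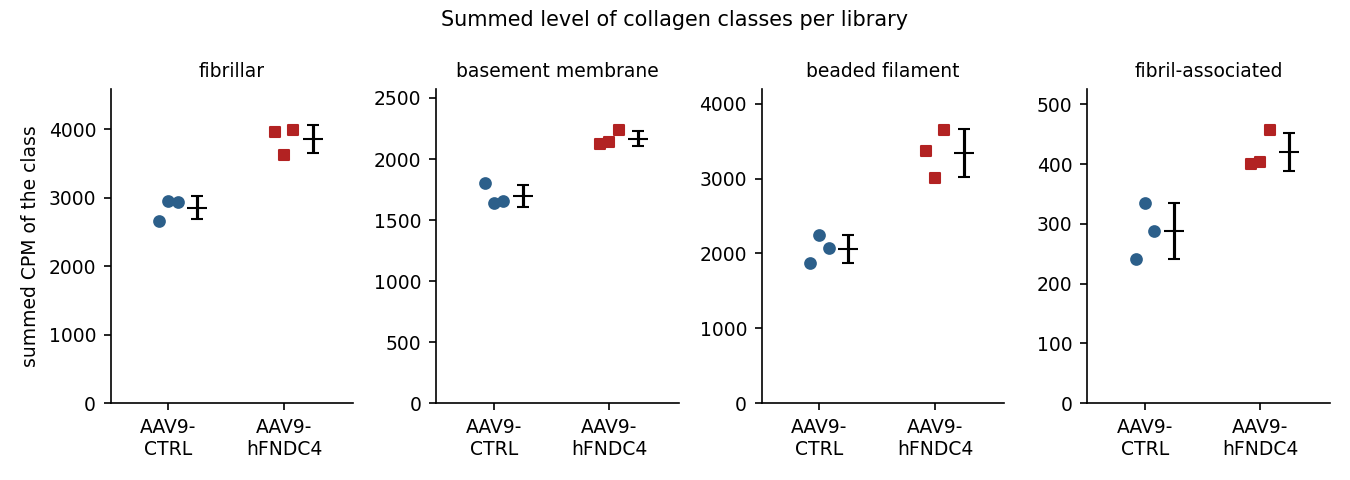
Summed CPM of the 4 most abundant collagen classes, with 1 point per library and the mean ± SD of 3 libraries beside them; each axis starts at 0. In each class the 3 AAV9-hFNDC4 libraries lie above the 3 AAV9-CTRL libraries, with a ratio of means from 1.28 (basement membrane) to 1.62 (beaded filament). The sums carry no correction for exon length.

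Among the 11 fibrillar rows, 4 were higher, 1 was lower, 4 did not pass and 2 were not tested, with a median log2 fold change of 0.34. Of those tested, 44.4% were higher and 11.1% lower, beside 22.1% and 25.0% of all genes tested. With the length correction 1 was higher and 2 were lower, beside 21.0% and 21.6% of all genes tested. Type I collagen, the main protein of scar and interstitial fibrils, has chains from Col1a1 and Col1a2. Col1a2 (chromosome 6, 4504814 to 4541544) stood at 1604, 1328 and 1552 CPM in AAV9-hFNDC4 replicates 1 to 3 and at 964, 1181 and 1159.7 CPM in AAV9-CTRL replicates 1 to 3. All 3 AAV9-hFNDC4 libraries were above the controls, with a log2 fold change of 0.44 (SE 0.12, adjusted p = 0.0107). Col1a1 (chromosome 11, 94936224 to 94953042) stood at 672, 489 and 683 CPM against 423, 544 and 488 CPM. Its AAV9-hFNDC4 replicate 2 fell within the control range, and its log2 fold change of 0.34 (SE 0.14, adjusted p = 0.0699) missed the threshold. The threshold was met on leaving out AAV9-hFNDC4 replicate 2 (0.49, adjusted p = 0.012) or AAV9-CTRL replicate 2 (0.43, adjusted p = 0.0278), in DESeq2 (0.34, adjusted p = 0.0498), with no low-count filter (0.36, adjusted p = 0.0125) and with a GC correction (0.54, adjusted p = 0.00334). Over its 15 alternatives the adjusted p of Col1a1 lay between 0.00334 and 0.552, the latter with the length correction (log2 fold change 0.12). Col1a2 lost its call without AAV9-hFNDC4 replicate 1 (0.39, adjusted p = 0.0541) and with the length correction (0.27, adjusted p = 0.0897).

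Type III collagen, from Col3a1 (chromosome 1, 45311538 to 45349706), forms thin fibrils and is laid down early in wound tissue. Col3a1 had the clearest separation among the abundant fibrillar chains, at 642, 649.7 and 647 CPM in AAV9-hFNDC4 and 307, 385 and 343 CPM in AAV9-CTRL. Its 3 AAV9-hFNDC4 values lay close together and above all controls, and the log2 fold change was 0.91 (SE 0.11, adjusted p = 8.31e-05). Its neighbour Col5a2 (chromosome 1, 45374321 to 45503282), a chain of type V collagen that regulates fibril diameter, was higher by less, at 262, 294 and 258 CPM against 205, 206 and 233 CPM with a log2 fold change of 0.34 (SE 0.10, adjusted p = 0.019). Col5a3, a further type V chain, stood at 232, 263 and 262 CPM against 206, 208 and 203 CPM, a log2 fold change of 0.29 (SE 0.10, adjusted p = 0.0278). Both type V calls were lost without AAV9-hFNDC4 replicate 2 (0.28, adjusted p = 0.0616 for Col5a2 and 0.27, adjusted p = 0.0695 for Col5a3). Col5a3 also lost its call without AAV9-hFNDC4 replicate 3 (0.27, adjusted p = 0.113) or AAV9-CTRL replicate 3 (0.28, adjusted p = 0.0944). With the length correction neither Col5a2 (0.06, adjusted p = 0.659) nor Col5a3 (0.06, adjusted p = 0.628) was called. Col5a1, the chain shared by most type V molecules, stood at 534, 584 and 576 CPM against 535, 407 and 497 CPM. Its groups overlapped and its log2 fold change of 0.23 (SE 0.12, adjusted p = 0.123) did not pass, except without AAV9-CTRL replicate 1 (0.35, adjusted p = 0.0337), with upper-quartile normalization and with the GC correction.

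Col2a1, the main fibrillar chain of cartilage, was lower. Col2a1 (chromosome 15, 97975602 to 98004695) had 19, 13 and 12 counts in AAV9-hFNDC4 and 158, 158 and 176 in AAV9-CTRL, or 0.507, 0.360 and 0.326 CPM against 4.57, 5.04 and 5.27 CPM. Its log2 fold change of -3.63 (SE 0.31, adjusted p = 1.37e-05), 12.3-fold lower, was the greatest among the tested collagens. Col11a2, which joins type II fibrils, stood at 15.2, 13.1 and 12.9 CPM against 16.5, 20.2 and 15.6 CPM. All 3 AAV9-hFNDC4 values were below the controls, but the log2 fold change of -0.34 (SE 0.15, adjusted p = 0.0777) did not pass. It passed with the length correction (log2 fold change -0.59, adjusted p = 0.00942). Col11a1 had 0 counts in AAV9-hFNDC4 and 4 in AAV9-CTRL. Sox9, the regulator of Col2a1 in cartilage, was lower as well, at 19.7 ± 0.850 CPM against 28.4 ± 0.849 CPM, with a log2 fold change of -0.53 (SE 0.11, adjusted p = 0.00271), whereas Runx2, a regulator of bone formation, was higher with 0.83 (SE 0.13). Acan and Matn1, which define cartilage, were at or near 0 in all libraries. The summed cartilage and bone markers were 101 to 105 CPM in the AAV9-hFNDC4 libraries and 70.4 to 82.1 CPM in the AAV9-CTRL libraries. Runx2 made up most of these sums, at 76.1 ± 4.54 CPM against 42.8 ± 6.47 CPM. Of the other members that reached 1 CPM, Sox9 was lower and Comp and Sp7 did not pass. Col24a1 and Col27a1, the remaining fibrillar chains, stayed under 1 CPM.

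Of the 8 basement membrane rows, 4 were higher, 0 lower, 1 did not pass and 3 were not tested, with a median log2 fold change of 0.67. Col4a1 and Col4a2 encode the chains of the common type IV network and lie head to head (chromosome 8, 11198423 to 11312826 on the minus strand and 11312805 to 11449287 on the plus strand). Their annotated first exons overlap by 22 bases. Col4a1 stood at 973, 928 and 1011 CPM against 941, 813 and 858 CPM, with groups that overlapped and a log2 fold change of 0.16 (SE 0.10, adjusted p = 0.237). Col4a2 stood at 644, 637 and 674 CPM against 544, 473 and 489 CPM. Its groups did not overlap, and the log2 fold change of 0.38 (SE 0.10, adjusted p = 0.00964) passed, a call that was lost without AAV9-hFNDC4 replicate 3 (0.36, adjusted p = 0.0504). The call was also lost with the length correction (0.12, adjusted p = 0.257).

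Col4a5 (chromosome X, 141475385 to 141689234), an X-linked chain of the type IV network of kidney and smooth muscle, was less abundant and was higher at 19.3, 20.8 and 20.3 CPM against 8.88, 10.3 and 8.35 CPM, a log2 fold change of 1.13 (SE 0.14, adjusted p = 0.000103). Each of its 3 AAV9-hFNDC4 values was above every control value. Col15a1 (chromosome 4, 47208161 to 47313167), a multiplexin of vessel and muscle basement membranes, had the greatest increase of all tested collagens. It stood at 31.8, 63.8 and 38.2 CPM against 10.5, 19.8 and 11.0 CPM, a log2 fold change of 1.70 (SE 0.30, adjusted p = 0.00156). Replicate 2 was the highest library in both groups, and with that AAV9-hFNDC4 library left out Col15a1 remained called (1.35, adjusted p = 0.00146). Col18a1 (chromosome 10, 77052178 to 77166548), whose C-terminal fragment endostatin inhibits angiogenesis, was higher at 457, 491 and 494 CPM against 296, 321 and 286 CPM with a log2 fold change of 0.67 (SE 0.10, adjusted p = 0.000275). Col4a3, Col4a4 and Col4a6, the other chains of specialised basement membranes, had 23, 1 and 1 counts over the 3 AAV9-hFNDC4 libraries and 24, 4 and 5 over the 3 AAV9-CTRL libraries, too few to compare.

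Type VI collagen is built from chains of Col6a1, Col6a2 and a further chain, most often that of Col6a3. All 3 were higher, while Col6a4, Col6a5 and Col6a6 were not tested, and the median log2 fold change of the 3 was 0.57. Over all genes tested 22.1% were higher, and with the length correction 2 of the 3 chains stayed called. Col6a3 (chromosome 1, 90765923 to 90843971) stood at 1228, 1278 and 1448 CPM against 732, 713 and 623 CPM, a log2 fold change of 0.94 (SE 0.11, adjusted p = 8.72e-05). Col6a1 (chromosome 10, 76708792 to 76726168) stood at 1186, 957 and 1220.2 CPM against 636, 828 and 808 CPM, with 0.57 (SE 0.13, adjusted p = 0.00492). Col6a2 (chromosome 10, 76595762 to 76623630) stood at 949, 777 and 981 CPM against 500.4, 705 and 642 CPM, with 0.55 (SE 0.14, adjusted p = 0.00751). With the length correction Col6a2 lost its call (0.32, adjusted p = 0.115). No AAV9-hFNDC4 library overlapped the controls in any of the 3, and for Col6a1 and Col6a2 AAV9-hFNDC4 replicate 2 was the lowest of its group and AAV9-CTRL replicate 1 the lowest of the controls. Col6a5 had 1 count over the AAV9-hFNDC4 libraries and 27 over the AAV9-CTRL libraries, a ratio of 30.0 between AAV9-CTRL and AAV9-hFNDC4 with an exact 95% binomial interval from 4.94 to 1228.

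Fibril-associated collagens sit on the surface of fibrils and link them to other matrix. Of 9 rows, Col16a1 was higher, Col12a1 was lower, 4 did not pass and 3 were not tested, with a median log2 fold change of -0.04. Each direction thus held 16.7% of those tested, beside 22.1% higher and 25.0% lower over all genes tested. With the length correction 1 was higher and 1 lower. Col16a1 (chromosome 4, 130047840 to 130099283) was the abundant member, at 365, 366 and 417 CPM against 209, 297 and 252 CPM, a log2 fold change of 0.60 (SE 0.13, adjusted p = 0.00315). Col12a1 (chromosome 9, 79598991 to 79718831), a chain of tissues under mechanical load, was lower at 1.82, 3.33 and 2.06 CPM against 4.89, 6.76 and 6.91 CPM, a log2 fold change of -1.36 (SE 0.28, adjusted p = 0.002). Col20a1, Col9a1, Col9a3 and Col14a1 had log2 fold changes of 0.26 (SE 0.13), 0.42 (SE 0.29), -0.33 (SE 0.35) and -1.27 (SE 0.70), none of which passed. Col9a1 overlapped widely, at 11.0, 6.68 and 12.2 CPM against 4.51, 9.63 and 8.17 CPM, and 7.68% of the exon bases of Col9a3 are shared with Tcfl5 on the other strand, whose reads could not be told apart without a stated strand setting.

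In the remaining classes, Col7a1 changed. Col7a1 (chromosome 9, 108953586 to 108984875), which forms the anchoring fibrils beneath epithelia, was lower at 8.95, 8.23 and 9.37 CPM against 21.3, 16.6 and 20.9 CPM, a log2 fold change of -1.15 (SE 0.15, adjusted p = 0.000145). Every AAV9-hFNDC4 library was below every control library. Col8a1 stood at 87.1, 96.0 and 87.3 CPM against 108, 61.1 and 72.5 CPM, and its log2 fold change of 0.16 (SE 0.18, adjusted p = 0.482) did not pass. AAV9-CTRL replicate 1 was the highest of all 6 for Col8a1, and the gene passed without it (0.46, adjusted p = 0.0127), while without AAV9-CTRL replicate 2 the log2 fold change was -0.0045. Col8a2 was near the limit, at 1.34, 1.08 and 1.11 CPM against 1.07, 1.02 and 0.808 CPM. Col17a1, a transmembrane collagen of hemidesmosomes in epithelia, stood at 9.80, 8.09 and 10.1 CPM against 12.3, 11.1 and 11.0 CPM, with all 3 AAV9-hFNDC4 values below the controls and a log2 fold change of -0.30 (SE 0.16, adjusted p = 0.151) that did not pass. It passed with the length correction (log2 fold change -0.48, adjusted p = 0.0264).

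The 19 rows under the limit add little RNA. Col13a1, a transmembrane collagen of the neuromuscular junction, had 0 counts in all 6 libraries, which allows up to 3 counts in a library. Col10a1, the collagen of hypertrophic cartilage, had 0 counts over the AAV9-hFNDC4 libraries and 18 over the AAV9-CTRL libraries. With the AAV9-hFNDC4 sum set at a floor of 3 counts and the control counts taken as they are, it was at least 6.66-fold lower. Col9a2 had 0 against 6 counts and Col11a1 0 against 4, too few to compare, with 0 in 1 of the AAV9-CTRL libraries for each. Col19a1 had 3 against 14 counts, a ratio of 5.18 between AAV9-CTRL and AAV9-hFNDC4 with an exact 95% interval from 1.45 to 28.1. Col24a1 went the other way, with 18 counts against 3. Col27a1, at 0.614, 0.388 and 0.299 CPM against 0.174, 0.159 and 0.150 CPM, had groups that did not overlap and a log2 fold change of 1.41 (SE 0.60, adjusted p = 0.0708) that missed the threshold. Counting error is all that these bounds and intervals cover. Over the whole table a count was found for 18717 to 18863 genes in AAV9-hFNDC4 and for 20431 to 20870 in AAV9-CTRL. Without the low-count filter the median log2 fold change of all genes was -0.15. Low rows were thus lost in AAV9-hFNDC4 beyond the collagens, and the part of this in these rows and in Col6a5 was not tested.

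**Figure D3:**
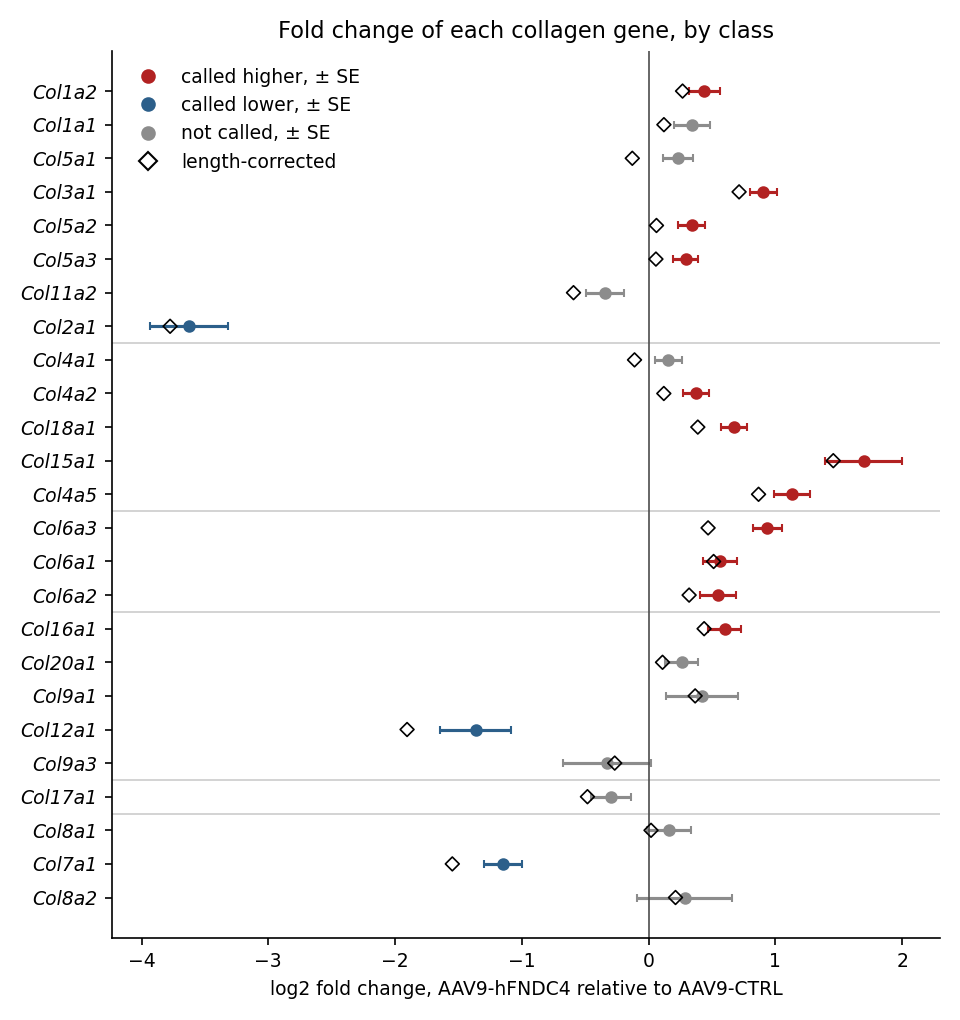
Log2 fold change of AAV9-hFNDC4 relative to AAV9-CTRL for the 25 collagen genes that reached 1 CPM, by class in the order of the plot of levels; filled points are the edgeR estimate ± SE and open diamonds the estimate with the length correction. The range runs from -3.63 (Col2a1) to 1.70 (Col15a1), and the diamonds of Col4a1 and Col5a1 lie on the other side of 0.

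Chains that assemble into the same molecule were compared as ratios of CPM per kilobase. Type I molecules mostly hold more of the Col1a1 than of the Col1a2 chain, yet the ratio of Col1a1 to Col1a2 RNA was 0.378, 0.332 and 0.397 in AAV9-hFNDC4 and 0.396, 0.415 and 0.379 in AAV9-CTRL. It was under 1 in every library and overlapped between the groups. The ratio of Col4a1 to Col4a2 was 1.47, 1.42 and 1.46 in AAV9-hFNDC4 and 1.69, 1.68 and 1.71 in AAV9-CTRL. All 3 AAV9-hFNDC4 values were below the controls, with means of 1.45 ± 0.0281 and 1.69 ± 0.0174 (SD, n = 3 each). The ratio of Col6a1 to Col6a2 was 1.82 ± 0.0120 and 1.81 ± 0.0783, and that of Col5a1 to Col5a2 1.64 ± 0.101 and 1.77 ± 0.262, both with overlap. With the length of the longest transcript, the Col6a1 to Col6a2 ratio was 1.41 in AAV9-hFNDC4 and 1.40 in AAV9-CTRL. These ratios were not tested.

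**Figure D4:**
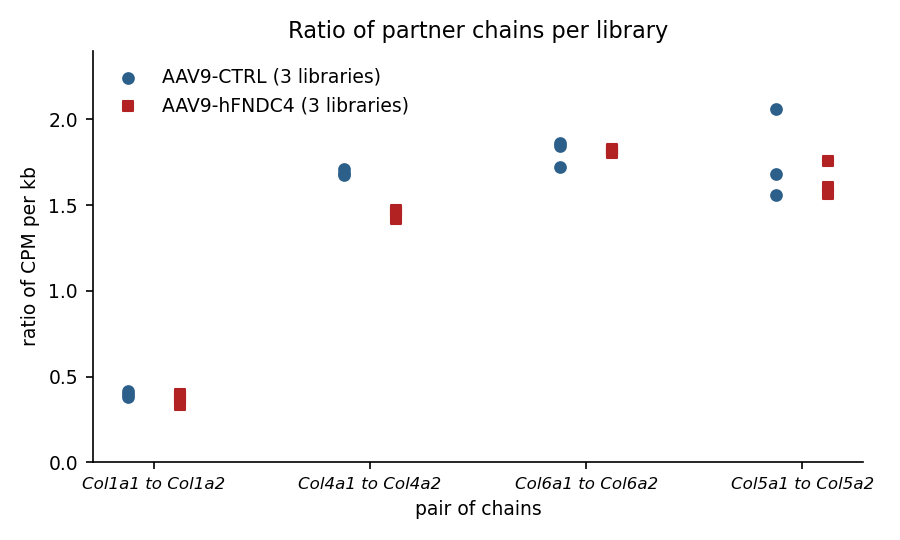
Ratio of CPM per kilobase of exon between partner chains in each of the 6 libraries, 1 point per library. The groups separate for Col4a1 to Col4a2, at 1.45 against 1.69 on average, and overlap for the other 3 pairs.

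Collagen transcripts are long, and in these libraries fold changes moved with length. The tested collagens had a median exon length of 6.07 kb, between 3.05 and 12.2 kb, beside a median of 3.14 kb over all tested genes with a gene model. When the tested genes were put in 10 bins of equal size by length, the median log2 fold change ran from -0.50 in the shortest bin to 0.46 in the longest. Of the 6761 tested genes within the length range of the collagens, 32.3% were higher and 15.8% lower. With a length trend fitted in each library and removed, 7 collagens were higher and 5 lower, which is 25.0% and 17.9% of the 28. Over all genes tested with the same correction, 21.0% were higher and 21.6% lower, so the share of collagens called higher was then near that of all genes. Col3a1, Col4a5, Col6a1, Col6a3, Col15a1, Col16a1 and Col18a1 kept their calls, with log2 fold changes of 0.71, 0.87, 0.51, 0.47, 1.46, 0.44 and 0.39. The calls of Col1a2 (log2 fold change 0.27, adjusted p = 0.0897), Col4a2 (0.12, 0.257), Col5a2 (0.06, 0.659), Col5a3 (0.06, 0.628) and Col6a2 (0.32, 0.115) were lost, and Col4a1 and Col5a1 turned to -0.11 and -0.13 without a call. Col2a1, Col7a1 and Col12a1 kept theirs at -3.77, -1.55 and -1.91. The median over the 28 tested collagens was then 0.12, with 0.06 for fibrillar, 0.39 for basement membrane and 0.47 for type VI chains. A GC correction moved the collagens in the other direction, with 17 higher (60.7%) and 3 lower (10.7%), beside 24.3% and 22.9% of all genes tested with that correction. The 12 genes called higher kept their calls, and Col1a1, Col4a1, Col5a1, Col20a1 and Col27a1 joined them.

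**Figure D5:**
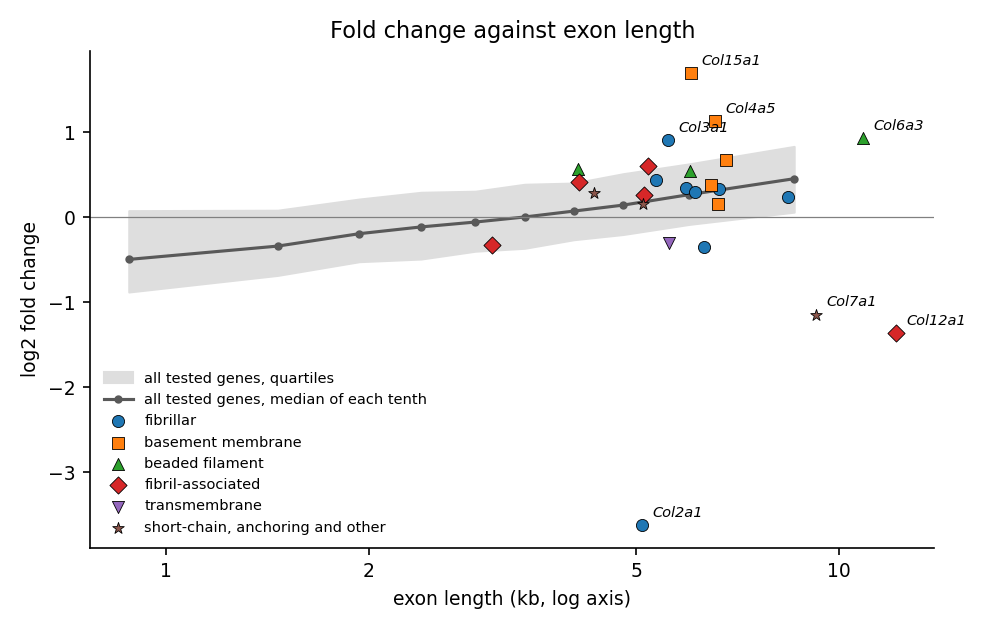
Log2 fold change against exon length (log axis) for the 25 collagen genes that reached 1 CPM, with the median and quartiles of all tested genes in 10 bins of exon length. The median line runs from -0.50 to 0.46. Col15a1, Col4a5, Col3a1, Col6a1 and, narrowly, Col16a1 lie above the quartiles of genes of their length. Col2a1 lies far below them, and Col11a2 and Col17a1 lie below them too. Col6a3, Col7a1 and Col12a1 are longer than 8.58 kb, the median of the longest bin, where the drawn quartiles end.

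To show where transcription of the most changed members begins, the bases before their annotated starts are given from RefSeq (build GRCm38.p6), 5′ to 3′ on the strand of the gene, without any annotated exon. Shown are the 4 collagens with the greatest increase among those with 1 listed start, and Col7a1, the lower collagen that has one. Motifs were searched on both strands, and capitals mark any match. They were TATAAA for the TATA box, CCAAT for the CCAAT box, GGGCGG for the GC box and TGANTCA for the AP-1 element. The cores of hypoxia response elements were searched as ACGTG and separately as a form that starts with G, GCGTG.
Col15a1 (chr4:47207812-47208011, plus strand): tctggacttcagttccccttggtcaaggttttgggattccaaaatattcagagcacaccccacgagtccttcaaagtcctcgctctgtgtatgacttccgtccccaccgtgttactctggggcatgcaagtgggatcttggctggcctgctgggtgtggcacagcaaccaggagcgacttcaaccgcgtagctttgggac
Col4a5 (chrX:141475185-141475384, plus strand): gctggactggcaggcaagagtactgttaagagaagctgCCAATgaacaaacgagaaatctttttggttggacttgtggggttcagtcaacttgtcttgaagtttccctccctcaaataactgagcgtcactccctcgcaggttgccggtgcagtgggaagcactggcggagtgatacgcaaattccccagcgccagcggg
Col6a3 (chr1:90843972-90844171, minus strand): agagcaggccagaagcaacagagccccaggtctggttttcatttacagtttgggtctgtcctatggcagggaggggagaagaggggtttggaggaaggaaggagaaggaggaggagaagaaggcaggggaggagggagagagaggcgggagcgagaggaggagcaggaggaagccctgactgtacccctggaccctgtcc
Col3a1 (chr1:45311338-45311537, plus strand): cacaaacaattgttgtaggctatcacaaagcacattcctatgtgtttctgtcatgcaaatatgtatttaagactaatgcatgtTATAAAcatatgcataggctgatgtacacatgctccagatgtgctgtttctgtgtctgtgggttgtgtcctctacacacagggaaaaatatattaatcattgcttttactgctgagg
Col7a1 (chr9:108953386-108953585, plus strand): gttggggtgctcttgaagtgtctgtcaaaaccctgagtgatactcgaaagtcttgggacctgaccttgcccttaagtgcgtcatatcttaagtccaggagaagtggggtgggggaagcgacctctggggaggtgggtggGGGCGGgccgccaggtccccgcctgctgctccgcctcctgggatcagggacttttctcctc

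Of the 44 rows, 35 had such a window in RefSeq, among them 12 of the 15 called collagens. In the 250 bases before the start, the CCAAT box was found in 6 of 11 higher collagens with a window and the GC box in 7 of 11, beside 33.8% and 32.7% of the 32851 windows of the same length in the table. The AP-1 element was found in Col6a1 alone of the 11, beside 6.75% of all windows, and the TATA box in Col3a1 alone, beside 12.4%. ACGTG was found in Col1a2 alone, beside 16.6%, and GCGTG in Col16a1, Col4a2, Col5a3 and Col6a2, beside 28.2% of all windows. The GCGTG and ACGTG patterns can overlap each other across strands. Of 10 collagens with a window that did not pass the test, 4 held the CCAAT box and 6 the GC box. The printed windows of Col15a1 and Col6a3 held none of the motifs, and that of Col3a1, at 37.5% GC, was poorer in G and C than that of Col6a3, at 59.5%. A match describes letters in a window and is no evidence of a bound site.

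Genes that modify and fold collagen chains in the endoplasmic reticulum were called about as often as genes in general. Of 18 tested, 4 were higher, 4 were lower and 10 missed the threshold (22.2% higher and 22.2% lower, beside 22.1% and 25.0% of all genes tested), and the median log2 fold change was -0.12. The lysyl hydroxylases, which prepare chains for cross-links, were among both. Plod2, the enzyme for telopeptide lysines, stood at 132, 318 and 157 CPM in AAV9-hFNDC4 and 71.2, 72.7 and 70.0 CPM in AAV9-CTRL, a log2 fold change of 1.5 (SE 0.28, adjusted p = 0.00196). Replicate 2 of AAV9-hFNDC4 was far above the other 2, and Plod2 was still called with it left out (1.02, adjusted p = 0.000139). Plod1 was higher at 313 ± 66.3 CPM against 185 ± 29.6 CPM with 0.76 (SE 0.16), and Plod3 was lower at 158 ± 3.41 CPM against 227 ± 9.96 CPM with -0.52 (SE 0.09). P3h3 and Mia3, a prolyl hydroxylase and an export receptor for large cargo, were higher with 0.35 (SE 0.11) and 0.39 (SE 0.13). Ppib, the prolyl isomerase cyclophilin B, Crtap, its partner, and Serpinh1, the collagen chaperone HSP47, were lower with -0.75 (SE 0.10), -0.47 (SE 0.11) and -0.40 (SE 0.12). Of the exon bases of Ppib, 57.6% are shared with Snx22 on the other strand, and 16.4% of those of Plod3 with other genes, so both are uncertain while the strand setting is not known. With the length correction Crtap and Serpinh1 lost their calls (log2 fold changes -0.18 and -0.27). The calls of Serpinh1, Mia3 and P3h3 did not hold when AAV9-hFNDC4 replicate 3 was left out (adjusted p = 0.0995, 0.0618 and 0.0592) or AAV9-CTRL replicate 3 was (0.102, 0.0503 and 0.0648). Serpinh1 and P3h3 were also not called without AAV9-hFNDC4 replicate 1, Mia3 without AAV9-hFNDC4 replicate 2, and Serpinh1 with the GC correction. The prolyl 4-hydroxylase genes P4ha1, P4ha2 and P4hb, whose enzyme stabilises the helix, had 0.35 (SE 0.14), 0.59 (SE 0.26) and -0.06 (SE 0.12) and did not pass.

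Of 9 tested genes that trim propeptides or cross-link fibrils, 4 were higher, 2 lower and 3 did not pass. This is 44.4% higher and 22.2% lower, beside 22.1% and 25.0% of all genes tested, at a median log2 fold change of 0.03. Loxl2, a lysyl oxidase family member, stood at 82.4, 136 and 97.6 CPM against 42.0, 50.4 and 43.0 CPM, a log2 fold change of 1.23 (SE 0.17, adjusted p = 0.000176). Lox itself, the founding member, had 5 counts over the 3 AAV9-hFNDC4 libraries and 0 over the 3 AAV9-CTRL libraries, and Loxl1 and Loxl3 did not pass. Adamts2 and Adamts14, which remove N-terminal propeptides, were higher with 0.60 (SE 0.14) and 0.56 (SE 0.17), and Loxl4 with 0.51 (SE 0.19). Loxl4 lost its call without AAV9-hFNDC4 replicate 2, AAV9-hFNDC4 replicate 3, AAV9-CTRL replicate 2 or AAV9-CTRL replicate 3 (adjusted p from 0.0791 to 0.173) and narrowly with RLE size factors (0.0502) and the length correction (0.0618), Adamts14 without AAV9-CTRL replicate 3 (adjusted p = 0.0683), and Adamts2 with the length correction (0.29). The enhancers of C-propeptide removal were lower, Pcolce at 392 ± 37.5 CPM against 603 ± 72.3 CPM with -0.62 (SE 0.12) and Pcolce2 at 13.1 ± 1.85 CPM against 24.5 ± 4.06 CPM with -0.91 (SE 0.16), while the protease they assist, Bmp1, had 0.03 (SE 0.11) and did not pass.

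Among collagen receptors and uptake genes, 4 of 6 tested were higher, 1 was lower and 1 did not pass. The shares are 66.7% higher and 16.7% lower, against 22.1% and 25.0% over all genes tested, and the median log2 fold change was 0.48. Ddr2, the receptor kinase for fibrillar collagen, stood at 498, 727 and 561 CPM against 365, 229 and 302 CPM, a log2 fold change of 1.0 (SE 0.18, adjusted p = 0.000861), and Ddr1 had 0.36 (SE 0.10). Mrc2, the endocytic receptor Endo180, was higher with 0.67 (SE 0.13), and Adgrg1, an adhesion receptor for type III collagen, with 0.60 (SE 0.17). Ddr1 and Adgrg1 lost their calls without AAV9-CTRL replicate 3 (adjusted p = 0.051 and 0.0619), Ddr1 also without AAV9-hFNDC4 replicate 3 and Adgrg1 without AAV9-hFNDC4 replicate 2. Itga10, a collagen-binding integrin of cartilage, was lower at 1.46 ± 0.314 CPM against 3.50 ± 0.355 CPM with -1.26 (SE 0.28), and is uncertain because 34.5% of its exon bases are shared with Gm42957 on the same strand. The other collagen-binding integrin genes Itga1, Itga2 and Itga11 were under 1 CPM in every library, and their common partner Itgb1 had -0.16 (SE 0.12) and did not pass.

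Of 8 tested proteoglycans and fibril organisers, 5 were higher, 2 lower and 1 did not pass. That amounts to 62.5% higher and 25.0% lower, with 22.1% and 25.0% over all genes tested, and a median log2 fold change of 0.74, or 0.26 with the length correction. Fn1, fibronectin, on which fibrils assemble, stood at 4855, 5824 and 5722 CPM against 2016, 1808 and 1846 CPM, a log2 fold change of 1.53 (SE 0.12, adjusted p = 8.76e-06). Prelp, a proteoglycan that ties basement membranes to fibrils, stood at 502, 328 and 537 CPM against 129, 208 and 159 CPM with 1.46 (SE 0.21, adjusted p = 0.000267). Vcan, Fmod and Tnxb were higher with 0.96 (SE 0.14), 1.12 (SE 0.37) and 0.52 (SE 0.14). Sparc, a collagen-binding matricellular protein, was lower with -0.45 (SE 0.11), and Aspn, asporin, lower at 0.0552 ± 0.0734 CPM against 0.621 ± 0.150 CPM with -3.43 (SE 0.82). Aspn had 0, 5 and 1 counts in AAV9-hFNDC4 and 21, 15 and 26 in AAV9-CTRL, so it passed the low-count filter through the AAV9-CTRL libraries alone. Tnxb had a log2 fold change of 0.02 with the length correction, and lost its call also without AAV9-hFNDC4 replicate 3 or AAV9-CTRL replicate 3. Fmod lost its call without AAV9-hFNDC4 replicate 3 (0.75, adjusted p = 0.146) or AAV9-CTRL replicate 1 (0.90, adjusted p = 0.0837), and Aspn moved to -5.19 without AAV9-hFNDC4 replicate 2. Bgn, biglycan, was abundant and did not pass at 599 ± 93.5 CPM against 622 ± 71.9 CPM, whereas Dcn and Lum, the usual fibril proteoglycans of fibroblasts, had 9 counts and 1 count over all 6 libraries.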

How the data were processed

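Raw read counts per gene symbol were deposited by the authors as 1 table with 6 library columns and no normalization, 3 labelled AAV9-hFNDC4 and 3 AAV9-CTRL. Columns were matched to samples by the library codes in the labels. TRIzol served for RNA extraction and a VAHTS kit for library preparation, per the labels' protocols. Per the submitters' processing notes, the tools were fastp, HISAT2, HTSeq, DESeq2 and R 3.2.0, and the build was GRCm38 (mm10). The sources used here do not give parameters, the annotation release, the strand setting or the handling of multi-mapping reads.

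From these counts, calls were made with edgeR 4.0.16 under R 4.3.3 (filterByExpr, TMM, robust quasi-likelihood F test, Benjamini-Hochberg over all 14663 genes tested, threshold 0.05). CPM uses TMM library sizes. The SE is the size of the log2 fold change divided by the square root of F. Exon lengths, GC content and coordinates are from GENCODE vM21 basic (GRCm38), in which 91.4% of tested genes were found; promoter windows are from RefSeq. Alternatives were RLE and upper-quartile normalization, 2 other low-count filters, DESeq2 1.42.0, limma-voom (limma 3.58.1), the replicate number as a block, loess corrections for length and GC content (span 0.4), the omission of each library in turn, and a further limit of 1 on the log2 fold change. On simulated counts for 14663 genes, 200 genes were altered, each with a mean of at least 1 CPM. There edgeR found 52% of the genes altered 1.5-fold and 86% at 2-fold. In the data far more genes were called, 3240 higher and 3668 lower, so these shares do not give the power of this comparison. Named were all collagens that reached 1 CPM or were called, rows at 0 in a whole group, and up to 4 called members per direction of each pathway list with the smallest p; others named were chosen after their values were seen. The members and lists were chosen with earlier results of these data known.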

Additional observations from a re-analysis of the deposited data

How the results depend on the processing

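Over 15 refits, the 25 collagens that reached 1 CPM gave 375 values, of which 346 kept direction and side of the threshold, 13 lost a call, 13 gained one and 3 turned sign without a call, the last being Col4a1 and Col5a1 with the length correction (-0.11 and -0.13) and Col8a1 without AAV9-CTRL replicate 2 (-0.0045). Col8a1 passed without AAV9-CTRL replicate 1 (0.46). The 12 higher collagens became 7 with the length correction and 2 with a log2 fold change above 1. The 3 lower became 5 with the length correction and 5 without the low-count filter. The latter adds Col6a5 and Col10a1, whose counts lay almost only in AAV9-CTRL. Over all genes, 4134 of 25222 were lower without that filter, beside 3668 of 14663 with it. Leaving out each library gave 10 to 15 higher and 3 lower collagens, beside 2299 to 3501 higher and 2974 to 3896 lower over all genes. Of the pathway genes, 17 were higher and 9 lower, in ranges of 10 to 18 and 8 to 11 when 1 library was left out, with 11 higher without AAV9-hFNDC4 replicate 3 and 10 without AAV9-CTRL replicate 3, and 5 and 2 with a log2 fold change above 1. The 26 called pathway genes gave 389 values, of which 33 lost the call. The count of collagens that reached 1 CPM was 25 with plain library totals and 23 when all 6 libraries had to reach it. Without the low-count filter the median log2 fold change of all genes was -0.15. Over all genes, 993 were higher and 1053 lower by a log2 fold change above 1, beside 3240 and 3668.

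Same-numbered libraries of the 2 groups did not deviate together (correlations of -0.087, -0.202 and -0.059), so there was no sign that the numbers pair them. With 3 libraries per group these values cannot decide the question. With the replicate block 10 collagens were higher and 3 lower, and Col5a2, Col5a3, Serpinh1, Mia3, P3h3 and Loxl4 lost their calls. Over all genes 2663 were then higher and 3080 lower, beside 3240 and 3668 without the block.

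Depth limits the 19 collagens under 1 CPM, of which 16 were not tested. With 3 libraries per group an exact permutation test of a single value cannot go below p = 0.1. Class sums and chain ratios were left without a test.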
